A study of Mus musculus with 6 samples.

Results

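The cytochrome P450 genes of the families that handle foreign compounds, steroids and fatty acids were followed in livers of mice fed a high-fat diet with or without allantoin. Members were the protein-coding mouse genes whose symbols belong to Cyp1a, Cyp1b, any subfamily from Cyp2a to Cyp2u, Cyp3a, or any subfamily from Cyp4a to Cyp4x. This gave 79 of the 54532 genes counted by Ensembl identifier, chosen by name and not by any measured value. Liver RNA came from male C57BL/6J mice that entered at 8 weeks of age and received the high-fat diet (HFD) for 4 weeks. In the next 4 weeks the HFD group (replicates 1 to 3) stayed on that diet alone and the HFD+Allantoin-H group (replicates 4 to 6) received allantoin with it, with 3 mice and 3 libraries per group. Allantoin was dosed at 0.3 mg/mL or, in mice not analysed here, at 0.06 mg/mL. The labels name both doses without tying either to single libraries, and that HFD+Allantoin-H is the higher one was taken from the study's methods. Whole liver was sequenced, so a smaller share of hepatocytes and less P450 RNA per hepatocyte cannot be told apart in these values.

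P450 enzymes hold a haem group and insert an oxygen atom into their substrates, with electrons passed on by P450 oxidoreductase and cytochrome b5. In liver, enzymes of the CYP1, CYP2 and CYP3 families oxidise drugs, plant compounds, steroids and arachidonic acid, and many of their genes respond to the receptors AhR, CAR and PXR. CYP4 enzymes oxidise the far end of fatty acids and eicosanoids, and the Cyp4a genes are classical targets of the fatty acid receptor PPARα. Several of these genes lie in clusters of recent duplicates, and in mouse liver some are expressed mainly in one sex.

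Values are given in CPM, counts scaled to a common library size with edgeR's TMM factors, and a fold change is HFD+Allantoin-H over HFD. Fold changes carry their standard error (SE). A gene was called at an adjusted p under 0.05 in edgeR's quasi-likelihood test over 12795 genes. Libraries held 11326372 to 14601457 counts. Transcripts of the protein-coding genes of mitochondrial DNA made up 17.1% to 35.4% of an HFD library and 6.66% to 11.1% of an HFD+Allantoin-H library, with TMM factors of 0.756 to 0.951 and 1.12 to 1.19. Scaling by library size only raised the median log2 fold change of all genes by 0.41, and the part of the mitochondrial transcripts in the P450 values was not tested beyond a fit without the mitochondrial chromosome, in which all 14 calls given below were retained. Of the cell type marker lists, the summed level was 110 to 262 CPM in HFD and 305 to 343 CPM in HFD+Allantoin-H libraries for macrophages and Kupffer cells, where 3 of 8 genes were called higher. It was 148 to 222 and 339 to 415 CPM for stellate cells, where 6 of 8 were called higher. The hepatocyte list, with 2 of 6 genes called lower, held 87163 to 89431 and 69160 to 97661 CPM. Most of this sum was Alb, with means of 59483 and 65248 CPM and a log2 fold change of 0.13. The other 5 genes had negative log2 fold changes, 4 of them lower without overlap, and the median of the list was -0.58. Over all tested genes, 11.3% were called higher and 13.0% lower. The adipocyte sum was 602 CPM in HFD replicate 2 and 49.4 to 135 CPM in the other 5 libraries, and Adipoq, Plin1 and Lep were at or near 0 outside that library. The part of other cell types in the P450 values was not tested. Every member's call is therefore given with the libraries whose removal ended it.

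Of the 79 members, 50 passed the filter on low counts, 29 did not, and 15 of these had no count in any library. Among the tested members, 7 were called higher and 7 lower in HFD+Allantoin-H livers, and 36 were not called. These are 28.0% of the tested members, where 24.3% of all tested genes were called (11.3% higher and 13.0% lower). The groups did not overlap in 9 members that were higher and 11 that were lower, against 22.4% and 21.9% of all genes (44.3% in either direction). Among these, Cyp2g1 (higher) and Cyp2d12 (lower) passed the filter only through the group in which they were high. Their lack of overlap was thus favoured by the filter. The median log2 fold change was 0.10 over the tested members and -0.03 over all tested genes. Both the share of calls and the median lay near those of the whole table, so the account below is of single genes and subfamilies that moved in different directions. Of the 14 calls, those of Cyp2a5, Cyp2c29, Cyp4a14, Cyp2j9 and Cyp2u1 were lost in none of 17 alternative fits.

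**Figure D1:**
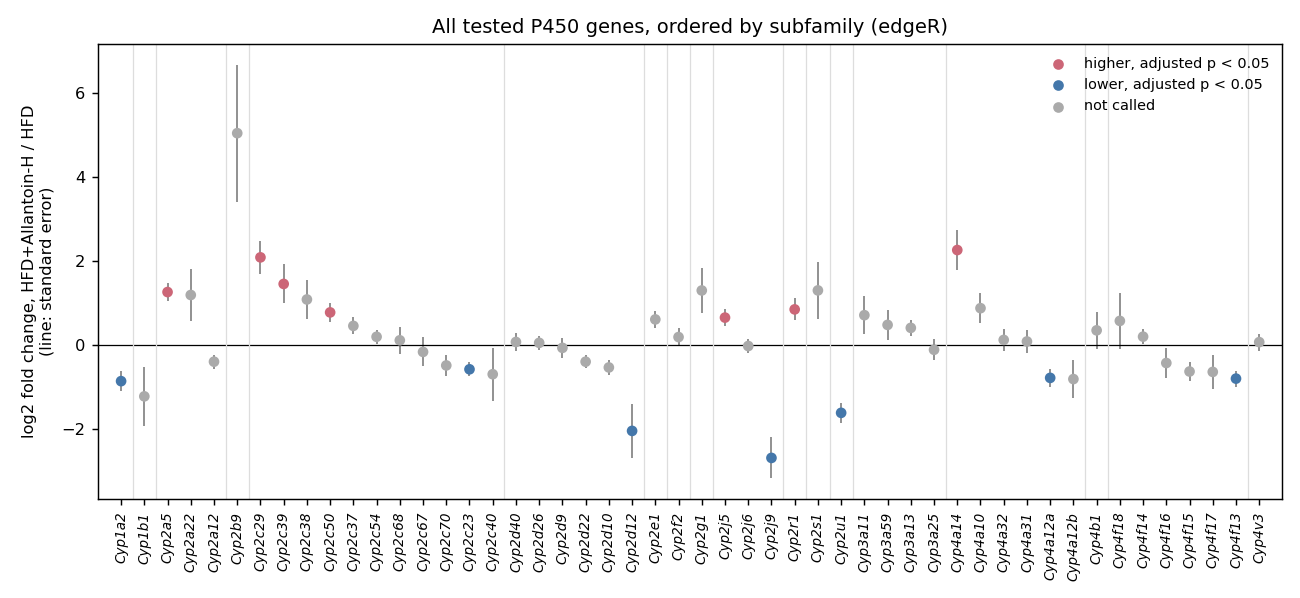
Log2 fold change (HFD+Allantoin-H over HFD, y axis) of the 50 tested P450 genes (x axis, ordered by subfamily), with lines for the standard error and colours for genes called higher, called lower or not called by edgeR. Genes called higher and genes called lower both occur within Cyp2c, Cyp2j and Cyp4a. Cyp2b9 has the longest error line, with a log2 fold change of 5.04 and a standard error of 1.63.

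All members together summed to 15796, 18352 and 18667 CPM in HFD livers, and to 21939, 23848 and 24788 CPM with allantoin. The 2 ranges did not overlap. In unscaled counts the members took 1.19% to 1.77% of an HFD library and 2.61% to 2.76% of an HFD+Allantoin-H library. Most of this difference in CPM lay in Cyp2e1, the ethanol- and acetone-oxidising P450 of hepatocytes around the central vein. Cyp2e1 had 5421, 7494 and 7349 CPM in HFD and 9865, 10803 and 10254 CPM in HFD+Allantoin-H livers. All 3 supplemented libraries lay above all 3 HFD libraries. With edgeR its log2 fold change was 0.61 (SE 0.21, adjusted p = 0.0632), which missed the threshold, while DESeq2 gave an adjusted p of 0.00615 and limma-voom 0.0351 for Cyp2e1. It made up 34.3% to 40.8% of the members' summed CPM in HFD and 41.4% to 45.3% in HFD+Allantoin-H libraries.

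Per kilobase of transcript, the scale on which genes can be compared, Cyp2e1 was first in both groups, at a mean level of 3685 CPM per kilobase in HFD and 5623 in HFD+Allantoin-H livers. Cyp2d9 was second in both, at 812 and 775 CPM per kilobase. Behind these, the order of the mean levels differed between the groups. Cyp2d10 went from rank 3 to rank 7, Cyp2a12 from 5 to 10 and Cyp1a2 from 8 to 17, while Cyp2c50 went from rank 6 to 3 and Cyp4a10 from 7 to 4. Neighbours in this order were not tested against each other.

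The Cyp2a genes encode coumarin, nicotine and testosterone hydroxylases, and 3 of the 4 members were tested. Cyp2a5 (ENSMUSG00000005547, chr7:26835305-26843548 in GRCm38), the coumarin hydroxylase that is known to rise in stressed or fatty liver, had 242, 303 and 346 CPM in HFD and 538, 809 and 787 CPM in HFD+Allantoin-H livers. Every supplemented library lay above every HFD library, by a log2 fold change of 1.26 (SE 0.22, edgeR adjusted p = 0.0060), or 2.40-fold. Its near-identical neighbour Cyp2a4, a testosterone hydroxylase gene that is mainly female in mouse liver, had too few reads to be tested, with 0, 0 and 4 counts in HFD and 5, 5 and 86 counts in HFD+Allantoin-H libraries. The coding sequences of both differ at 23 of 1482 positions and share a run of 216 identical bases, longer than a short read, so reads may be split between them. A stretch of 80 coding bases where they differ at 5 positions, in capitals, shows how few letters tell the genes apart (coding positions 590 to 669, from GENCODE M21 transcripts).
Cyp2a4: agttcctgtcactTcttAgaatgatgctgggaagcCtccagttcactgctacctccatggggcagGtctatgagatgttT
Cyp2a5: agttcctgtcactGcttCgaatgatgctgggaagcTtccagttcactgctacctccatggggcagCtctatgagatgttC
Summed over the pair, the levels were 242, 303 and 346 CPM in HFD and 538, 810 and 793 CPM in HFD+Allantoin-H libraries, so the difference of the pair was as large as that of Cyp2a5 alone, with a log2 ratio of 1.27.

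Cyp2a12, a bile acid and steroid hydroxylase gene with the highest mean level of the subfamily in HFD livers, had 629, 662 and 623 CPM in HFD and 439, 445 and 568 CPM in HFD+Allantoin-H livers. These ranges did not overlap, but with a log2 fold change of -0.40 (SE 0.17, edgeR adjusted p = 0.118) Cyp2a12 was not called, and its sign turned to 0.01 with scaling by library size only. Its near-identical partner Cyp2a22 had 3.46 to 11.5 CPM in HFD libraries, 8.06 and 8.40 CPM in HFD+Allantoin-H replicates 4 and 5, and 35.1 CPM in replicate 6. The subfamily as a whole summed to 879, 968 and 980 CPM in HFD and 986, 1264 and 1396 CPM in HFD+Allantoin-H libraries, a log2 ratio of 0.37, which was 0.77 with scaling by library size only.

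The Cyp2c genes encode hydroxylases and epoxygenases of arachidonic acid, steroids and drugs, and this was the subfamily with the most tested members, 11 of 15. Of these, 3 were called higher (Cyp2c29, Cyp2c50 and Cyp2c39), 1 lower (Cyp2c23), and 7 were not called. The share called was 36.4%, against 24.3% of all tested genes. Cyp2c29 (ENSMUSG00000003053, chr19:39269405-39330713), which in mouse liver responds to CAR and to phenobarbital-type inducers, had 54.9, 111 and 187 CPM in HFD and 439, 435 and 630 CPM in HFD+Allantoin-H livers. The lowest supplemented library lay above the highest HFD library, and the HFD libraries differed among themselves. The log2 fold change was 2.09 (SE 0.39, edgeR adjusted p = 0.0081), or 4.25-fold. In the annotation it overlaps the pseudogene Cyp2c53-ps on the same strand, to which 1 to 13 counts per library were assigned.

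The promoter of Cyp2c29 is printed as the member with the largest difference in this subfamily and carries 1 match to AGGTCA, the core motif of nuclear receptors, in capitals (RefSeq, GRCm38.p6, chr19:39286835-39287134, plus strand). This window, 250 bases before to 50 after the RefSeq start, lies inside the gene as GENCODE M21 draws it.
Cyp2c29 promoter: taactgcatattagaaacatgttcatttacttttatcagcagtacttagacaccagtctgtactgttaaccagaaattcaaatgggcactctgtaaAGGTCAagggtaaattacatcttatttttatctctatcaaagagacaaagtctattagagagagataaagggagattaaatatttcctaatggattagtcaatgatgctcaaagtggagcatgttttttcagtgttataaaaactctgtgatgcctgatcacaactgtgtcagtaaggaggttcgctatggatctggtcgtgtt
Promoter windows, 71 in all since some genes have several, were found for 64 of the 79 members and for 9 of the 14 called members, Cyp4a14, Cyp4a12a, Cyp2u1 and Cyp2d12 being among those without one. On either strand, AGGTCA matched in 28.2% of the members' windows and in 16.3% of all promoter windows. GCGTG, the core motif of AhR, matched in 18.3% of the members' windows against 32.4% of all. TTCNNNGAA, the core of STAT sites, matched in 5.63% against 8.3%. None of the 3 motifs holds another, and windows of duplicated genes are not independent, so these shares describe the letters in the windows and were not tested.

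Cyp2c50 (ENSMUSG00000054827), which belongs to a trio of near-identical genes with Cyp2c37 and Cyp2c54, had 457, 696 and 625 CPM in HFD and 809, 978 and 1259 CPM in HFD+Allantoin-H livers. Its groups did not overlap, with a log2 fold change of 0.78 (SE 0.23, edgeR adjusted p = 0.0385). Without HFD replicate 1 the adjusted p of Cyp2c50 was 0.0818, and without HFD+Allantoin-H replicate 4, 5 or 6 it was 0.0555, 0.105 and 0.128, with log2 fold changes of 0.60 to 0.92 over these 4 fits. Cyp2c37 had 323, 331 and 425 CPM in HFD and 396, 489 and 595 CPM in HFD+Allantoin-H livers, with an adjusted p of 0.131. The coding sequences of Cyp2c37 and Cyp2c50 differ at 57 of 1470 positions. The trio summed to 1007, 1279 and 1308 CPM in HFD and 1478, 1792 and 2101 CPM in HFD+Allantoin-H libraries, without overlap and with a log2 ratio of 0.58. This sum does not depend on how the counted reads were shared among the 3 genes. Whether reads that matched several of them were counted at all is not known, since the counting tool is not given.

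Cyp2c39, a retinoic acid hydroxylase gene of low level, had 1.53, 1.28 and 2.68 CPM in HFD and 3.59, 3.55 and 8.10 CPM in HFD+Allantoin-H livers. It was named after its values were seen, as the remaining call of the subfamily. Its groups did not overlap, the log2 fold change was 1.45 (SE 0.46), and the edgeR adjusted p of 0.0491 lay just under the threshold. The call of Cyp2c39 was lost with limma-voom (adjusted p = 0.0817) and without HFD replicate 1 or 2 or HFD+Allantoin-H replicate 4, 5 or 6, with adjusted p of 0.0766 to 0.202 and log2 fold changes of 0.95 to 1.67.

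Cyp2c23 (ENSMUSG00000025197), an arachidonic acid epoxygenase gene that lies apart from the other Cyp2c genes on chromosome 19, had 270, 266 and 211 CPM in HFD and 159, 177 and 165 CPM in HFD+Allantoin-H livers. Each supplemented library lay below each HFD library. The log2 fold change was -0.58 (SE 0.16, edgeR adjusted p = 0.0341), and no other annotated gene shared near-identical sequence with it. The call of Cyp2c23 was lost with scaling by library size only (log2 fold change -0.15), with no filter, and without HFD replicate 1 or 2 or HFD+Allantoin-H replicate 4, 5 or 6, which gave log2 fold changes of -0.52 to -0.62 and adjusted p of 0.0566 to 0.137. The 15 Cyp2c genes summed to 1756, 2100 and 2386 CPM in HFD and 2519, 2756 and 3591 CPM in HFD+Allantoin-H libraries, without overlap. That is a log2 ratio of 0.51, which was 0.90 with scaling by library size only.

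**Figure D2:**
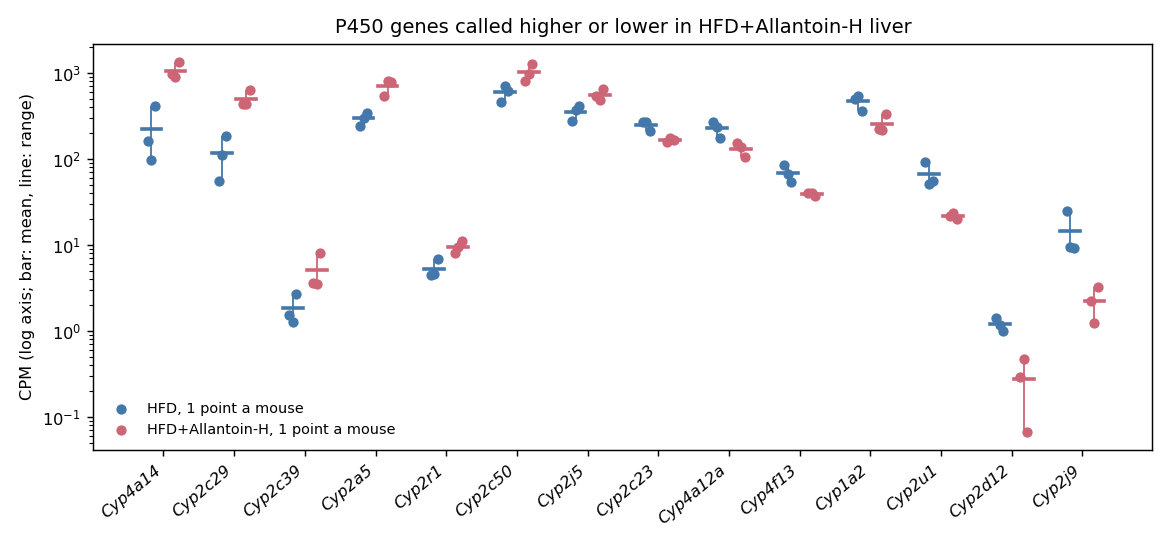
CPM on a log axis of the 14 called P450 genes in each mouse, with HFD in blue and HFD+Allantoin-H in red, bars at the group mean and lines from the lowest to the highest mouse. The groups do not overlap in any of the 14 genes, and the levels reach from 0.0675 CPM (Cyp2d12) to 1325 CPM (Cyp4a14). The genes shown were selected by the test of this same difference, so the lack of overlap adds no support. In 44.3% of all tested genes the groups do not overlap.

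The Cyp4a genes encode fatty acid omega-hydroxylases, and 6 of the 8 members were tested. Cyp4a14 (ENSMUSG00000028715, chr4:115486200-115496142), a lauric acid hydroxylase gene known as a strong PPARα target, had 160, 97.0 and 407 CPM in HFD and 966, 895 and 1325 CPM in HFD+Allantoin-H livers. All supplemented libraries lay above all HFD libraries, of which replicate 3 was the highest. The log2 fold change of 2.26 (SE 0.47, edgeR adjusted p = 0.0109), or 4.80-fold, was the highest among the called members, and no other gene shared near-identical sequence with it. Cyp4a10, the other classical PPARα target of the subfamily, had 538, 356 and 1023 CPM in HFD and 1284, 1332 and 906 CPM in HFD+Allantoin-H livers. Here HFD replicate 3 lay above HFD+Allantoin-H replicate 6, and Cyp4a10 was not called (log2 fold change 0.88, standard error 0.36, edgeR adjusted p = 0.101). Leaving out HFD replicate 3 gave Cyp4a10 a log2 fold change of 1.39 with an adjusted p of 0.00643, and DESeq2 gave an adjusted p of 0.037. Its near-identical partners Cyp4a31 and Cyp4a32 had 11.5 to 19.8 CPM and 20.5 to 44.1 CPM over the 6 libraries, and the trio summed to 398 to 1063 CPM in HFD and 949 to 1386 CPM in HFD+Allantoin-H libraries.

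Cyp4a12a (ENSMUSG00000066071, chr4:115299046-115332815), the mainly male arachidonic acid omega-hydroxylase of mouse, moved in the other direction from Cyp4a14. It had 266, 236 and 177 CPM in HFD and 152, 138 and 105 CPM in HFD+Allantoin-H livers, without overlap. This is a log2 fold change of -0.78 (SE 0.21, edgeR adjusted p = 0.0283). The call of Cyp4a12a was lost with scaling by library size only (log2 fold change -0.34) and without HFD replicate 1 or 2 or HFD+Allantoin-H replicate 4, 5 or 6, with log2 fold changes of -0.64 to -0.89 and adjusted p of 0.0609 to 0.104. Its near-identical copy Cyp4a12b had 97.1, 89.8 and 69.8 CPM in HFD and 59.3, 71.9 and 15.0 CPM in HFD+Allantoin-H livers. The coding sequences of the copies differ at 23 of 1524 positions and share a run of 342 identical bases. The stretch at coding positions 667 to 746 holds 6 of these differences, in capitals, and is shown because counts of the 2 genes rest on such positions.
Cyp4a12a: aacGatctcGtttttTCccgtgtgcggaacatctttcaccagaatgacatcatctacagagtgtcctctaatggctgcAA
Cyp4a12b: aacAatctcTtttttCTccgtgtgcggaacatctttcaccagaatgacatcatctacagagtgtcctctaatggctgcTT
The pair summed to 363, 326 and 247 CPM in HFD and 211, 210 and 120 CPM in HFD+Allantoin-H libraries, without overlap and with a log2 ratio of -0.79. The whole subfamily summed to 1117, 821 and 1718 CPM in HFD and 2513, 2491 and 2394 CPM in HFD+Allantoin-H libraries, also without overlap. That is a log2 ratio of 1.02 (1.41 with scaling by library size only), carried by Cyp4a14 and Cyp4a10 in CPM.

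The Cyp2d genes encode relatives of human debrisoquine hydroxylase, with 6 of 8 members tested, 1 called lower and none called higher by edgeR, DESeq2 or limma-voom (0 higher at an unadjusted p under 0.05). By edgeR 16.7% of the tested Cyp2d genes were called, against 24.3% of all tested genes. Cyp2d12 was the called gene and stood at the lower limit of detection, with 1.42, 1.19 and 1.003 CPM in HFD and 0.293, 0.473 and 0.0675 CPM in HFD+Allantoin-H livers. Its log2 fold change was -2.04 (SE 0.65, edgeR adjusted p = 0.0482). Cyp2d12 passed the filter through the HFD libraries alone, it overlaps the annotated gene Gm27924 on the same strand, and its call was lost in 11 of the 17 alternatives. Leaving out any one library gave adjusted p of 0.0569 to 0.154 and log2 fold changes of -1.60 to -2.68 for Cyp2d12. Cyp2d9, a mainly male steroid hydroxylase gene and the most abundant Cyp2d member, had 1372, 1647 and 1151 CPM in HFD and 1407, 1597 and 976 CPM in HFD+Allantoin-H livers. The groups overlapped, with a log2 fold change of -0.07 (SE 0.23, edgeR adjusted p = 0.859), whose sign turned in 4 alternatives, scaling by library size only among them. Cyp2d10, with which it shares near-identical sequence, had 1089, 918 and 860 CPM in HFD and 616, 749 and 615 CPM in HFD+Allantoin-H livers. These did not overlap, and Cyp2d10 missed the threshold with edgeR (log2 fold change -0.53, adjusted p = 0.0567) but passed it with DESeq2 (0.0183) and limma-voom (0.0427). Summed over the subfamily, the log2 ratio was -0.17 with overlapping groups, 2970 to 3634 CPM in HFD and 2682 to 3378 CPM in HFD+Allantoin-H libraries, and it turned to 0.25 with scaling by library size only.

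The Cyp4f genes encode hydroxylases of leukotrienes and long-chain fatty acids, with 6 of 9 members tested, 1 called lower and none called higher by any of the 3 tools (0 higher at an unadjusted p under 0.05). By edgeR 16.7% of the tested Cyp4f genes were called, against 24.3% of all tested genes. Cyp4f13 (ENSMUSG00000024055) had 84.0, 67.7 and 53.7 CPM in HFD and 40.2, 40.3 and 37.3 CPM in HFD+Allantoin-H livers. The supplemented libraries lay close together and below every HFD library, with a log2 fold change of -0.80 (SE 0.19, edgeR adjusted p = 0.0175). The call of Cyp4f13 was lost with scaling by library size only (log2 fold change -0.36) and without HFD+Allantoin-H replicate 4, 5 or 6 (-0.76 to -0.81, adjusted p of 0.0702 to 0.0741). Cyp4f15, the most abundant of the subfamily, had 209, 185 and 129 CPM in HFD and 108, 136 and 92.8 CPM in HFD+Allantoin-H livers. HFD replicate 3 lay below HFD+Allantoin-H replicate 5, and Cyp4f15 was not called (log2 fold change -0.63, edgeR adjusted p = 0.0698), though DESeq2 gave an adjusted p of 0.039 and the fit without HFD replicate 3 gave -0.81 with an adjusted p of 0.0161 for Cyp4f15. Cyp4f14, a leukotriene B4 hydroxylase gene, had 83.6 to 115 CPM in HFD and 101 to 125 CPM in HFD+Allantoin-H livers, so the subfamily did not move as one. Its sum had a log2 ratio of -0.37 with overlapping groups, which turned to 0.06 with scaling by library size only.

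The Cyp3a genes encode the broad drug and steroid hydroxylases under PXR, and 4 of 9 members were tested. By edgeR 0 of these were called, 0 had an unadjusted p under 0.05, and DESeq2 and limma-voom also called 0. Over all tested genes edgeR called 24.3%. Cyp3a11, the main Cyp3a gene of adult male mouse liver, had 303, 468 and 882 CPM in HFD and 642, 561 and 1502 CPM in HFD+Allantoin-H livers. The groups overlapped, and each held 1 library well above the other 2. The log2 fold change was 0.71 (SE 0.46, edgeR adjusted p = 0.28), and without HFD+Allantoin-H replicate 6 it was 0.13 (adjusted p = 0.86) for Cyp3a11. Cyp3a13 and Cyp3a59 had log2 fold changes of 0.41 and 0.48, and Cyp3a25 had -0.11. Leaving out HFD replicate 1 gave Cyp3a59 a log2 fold change of 1.03 with an adjusted p of 0.0338, and Cyp3a59 and Cyp3a13 also passed the threshold with scaling by library size only (0.94 and 0.81, adjusted p = 0.0442 and 0.0319). The 9 genes summed to 1061 to 1354 CPM in HFD and 1188 to 2194 CPM in HFD+Allantoin-H libraries, a log2 ratio of 0.39 that was 0.79 with scaling by library size only and 0.05 without HFD+Allantoin-H replicate 6. The mainly female genes Cyp3a16, Cyp3a41a and Cyp3a41b had no count in any library.

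The Cyp2b genes encode the phenobarbital-inducible hydroxylases under CAR, and only Cyp2b9 of the 5 members passed the filter. Cyp2b9 (ENSMUSG00000040660, chr7:26173411-26210661), a mainly female gene in mouse liver, had 0.546, 0.395 and 4.85 CPM in HFD and 5.57, 2.66 and 194 CPM in HFD+Allantoin-H livers. The groups overlapped through HFD replicate 3, and HFD+Allantoin-H replicate 6 stood far above the other 5 libraries. Its log2 fold change of 5.04 (SE 1.63, edgeR adjusted p = 0.052) rested on this library, without which it was 1.05 (adjusted p = 0.48). Leaving out HFD replicate 3 gave 7.15 for Cyp2b9 (adjusted p = 0.0386), and leaving out HFD+Allantoin-H replicate 5 gave 5.63 (adjusted p = 0.0483). Cyp2b9 also passed the threshold with upper-quartile scaling (5.07, adjusted p = 0.0469), with library size only (5.36, adjusted p = 0.0302) and with no filter (5.08). In the reported edgeR fit 0 Cyp2b genes were called, with 1 at an unadjusted p under 0.05, and DESeq2 and limma-voom called 0. Cyp2b10, the best known CAR target, had 0, 1 and 3 counts in HFD and 4, 8 and 10 counts in HFD+Allantoin-H libraries, too few to be tested. The sum of the subfamily had a log2 ratio of 4.98, which was 1.08 without HFD+Allantoin-H replicate 6.

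Cyp2b13, the neighbour of Cyp2b9 on chromosome 7 and also mainly female, had 0, 0 and 7 counts in HFD and 6, 0 and 124 counts in HFD+Allantoin-H libraries. It too was highest in replicate 6, as were Cyp2a4, Cyp2a22 and Cyp3a11, while Cyp4a12b was lowest there, with 222 counts against 809 to 1216 in the other 5 libraries. These genes were picked out after their values were seen. The promoter windows of Cyp2b9 and Cyp2b13 are printed because the 2 genes were high in the same library and their windows differ at only 2 of 300 bases. Each holds 1 match to AGGTCA, in capitals (RefSeq, GRCm38.p6, plus strand, chr7:26173159-26173458 for Cyp2b9 and chr7:26061245-26061544 for Cyp2b13).
Cyp2b9 promoter: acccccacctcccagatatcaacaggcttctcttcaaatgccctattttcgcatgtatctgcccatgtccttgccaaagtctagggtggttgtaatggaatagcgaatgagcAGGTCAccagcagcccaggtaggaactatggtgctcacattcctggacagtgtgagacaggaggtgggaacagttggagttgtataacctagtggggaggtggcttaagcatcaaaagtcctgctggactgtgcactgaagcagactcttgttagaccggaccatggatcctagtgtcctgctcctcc
Cyp2b13 promoter: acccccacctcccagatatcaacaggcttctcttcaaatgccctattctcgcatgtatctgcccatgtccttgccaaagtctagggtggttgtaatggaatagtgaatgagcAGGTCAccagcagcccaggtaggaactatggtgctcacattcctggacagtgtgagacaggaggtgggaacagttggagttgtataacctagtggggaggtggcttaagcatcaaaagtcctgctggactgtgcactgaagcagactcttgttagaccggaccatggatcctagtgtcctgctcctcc
Of a list of 11 P450 genes that are mainly female in mouse liver, 3 were tested, 1 was called higher (Cyp4a14) and 0 lower. Of a list of 4 mainly male ones, all were tested, 0 were called higher by edgeR, DESeq2 or limma-voom (0 at an unadjusted p under 0.05) and 2 lower (Cyp2u1 and Cyp4a12a). Over all tested genes, 11.3% were called higher and 13.0% lower. The median log2 fold changes of the female and male lists were 2.26 and -0.80, against -0.03 over all tested genes, and the female list's median is over 3 genes only. These were Cyp4a14, Cyp2b9 and Cyp2c40, the last with a log2 fold change of -0.70 (edgeR adjusted p = 0.453). Among the untested genes of the female list, Cyp2c69 had 9, 2 and 15 counts in HFD and 0, 1 and 0 counts in HFD+Allantoin-H libraries, lower without overlap. In the edgeR fit with no filter Cyp2c69 was called lower (adjusted p = 0.00952). The same fit called Cyp2b9, Cyp2b13 and Cyp2a4 of this list higher, with log2 fold changes of 5.08, 3.75 and 4.05. All of these last genes were highest in HFD+Allantoin-H replicate 6. For Cyp2b9 the edgeR adjusted p was 4.46e-76 with no filter, against 0.052 in the reported fit and 0.48 without that library. Calls of the fit with no filter are therefore not relied on for low and variable genes, Cyp2c69 included.

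**Figure D3:**
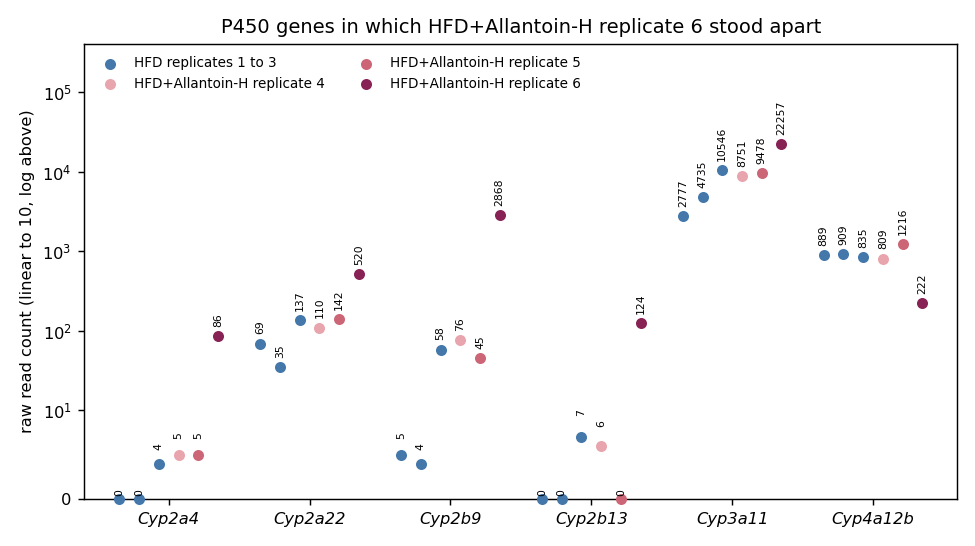
Raw read counts (y axis, linear to 10 and logarithmic above) of 6 P450 genes in each library, with HFD replicates 1 to 3 in blue and HFD+Allantoin-H replicates 4, 5 and 6 in light, medium and dark red and the count printed at each point. In replicate 6 Cyp2b9 reached 2868 counts against 4 to 76 in the other libraries, and Cyp4a12b had 222 there against 809 to 1216.

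In the remaining subfamilies, 13 of 21 members were tested, 2 called higher and 3 lower. This is 38.5% of the tested ones, where 24.3% of all tested genes were called (11.3% higher and 13.0% lower). Cyp2u1 (ENSMUSG00000027983, chr3:131288441-131303227), a fatty acid hydroxylase gene, had 92.6, 51.2 and 54.7 CPM in HFD and 21.6, 23.3 and 19.8 CPM in HFD+Allantoin-H livers. The supplemented libraries lay close together and below all HFD libraries, with a log2 fold change of -1.61 (SE 0.24, edgeR adjusted p = 0.0040), the smallest adjusted p of all members. The annotated gene 4930534D22Rik overlaps Cyp2u1 on the opposite strand, and the strand setting of the counting was not given in the sources used here. Cyp2j9 (ENSMUSG00000015224, chr4:96568429-96591578), an arachidonic acid metabolising P450 gene, had 24.6, 9.38 and 9.20 CPM in HFD and 2.20, 1.24 and 3.24 CPM in HFD+Allantoin-H livers. Its log2 fold change of -2.69 (SE 0.49, edgeR adjusted p = 0.0070), or 6.44-fold lower, was the strongest decrease among the called members.

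Cyp2j5, an arachidonic acid epoxygenase gene in the same cluster as Cyp2j9, moved in the opposite direction. It had 277, 371 and 411 CPM in HFD and 533, 486 and 645 CPM in HFD+Allantoin-H livers, without overlap. This is a log2 fold change of 0.65 (SE 0.20, edgeR adjusted p = 0.0446). The call of Cyp2j5 was lost without HFD replicate 1 or 2 or HFD+Allantoin-H replicate 4, 5 or 6, with log2 fold changes of 0.50 to 0.75 and adjusted p of 0.0763 to 0.145. Cyp2j6, the third tested Cyp2j gene, had 71.2 to 81.4 CPM in HFD and 63.2 to 86.3 CPM in HFD+Allantoin-H livers.

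Cyp2r1, which encodes a vitamin D 25-hydroxylase, had 4.48, 4.64 and 6.77 CPM in HFD and 8.14, 9.52 and 11.1 CPM in HFD+Allantoin-H livers. The groups did not overlap, with a log2 fold change of 0.85 (SE 0.26, edgeR adjusted p = 0.0444). The call of Cyp2r1 was lost without HFD replicate 1 or 2 or HFD+Allantoin-H replicate 4, 5 or 6, with log2 fold changes of 0.73 to 0.96 and adjusted p of 0.0825 to 0.153.

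Cyp1a2 (ENSMUSG00000032310), the caffeine- and arylamine-oxidising target of AhR that is made constitutively in liver, had 502, 536 and 361 CPM in HFD and 220, 219 and 332 CPM in HFD+Allantoin-H livers. The closest libraries, HFD replicate 3 and HFD+Allantoin-H replicate 6, did not overlap, and the log2 fold change was -0.86 (SE 0.23, edgeR adjusted p = 0.0274). The call of Cyp1a2 was lost with scaling by library size only (log2 fold change -0.44) and without HFD replicate 1 or 2 or HFD+Allantoin-H replicate 4 or 5, with log2 fold changes of -0.75 to -0.80 and adjusted p of 0.0612 to 0.122. The inducible Cyp1a1 had 0 to 12 counts per library and was not tested. Cyp2f2, a naphthalene-oxidising P450 gene expressed around the portal vein, had 238, 425 and 368 CPM in HFD and 385, 429 and 361 CPM in HFD+Allantoin-H livers. It was not called, with a log2 fold change of 0.19 (SE 0.22, edgeR adjusted p = 0.567) that was -0.02 for Cyp2f2 without HFD replicate 1.

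**Figure D4:**
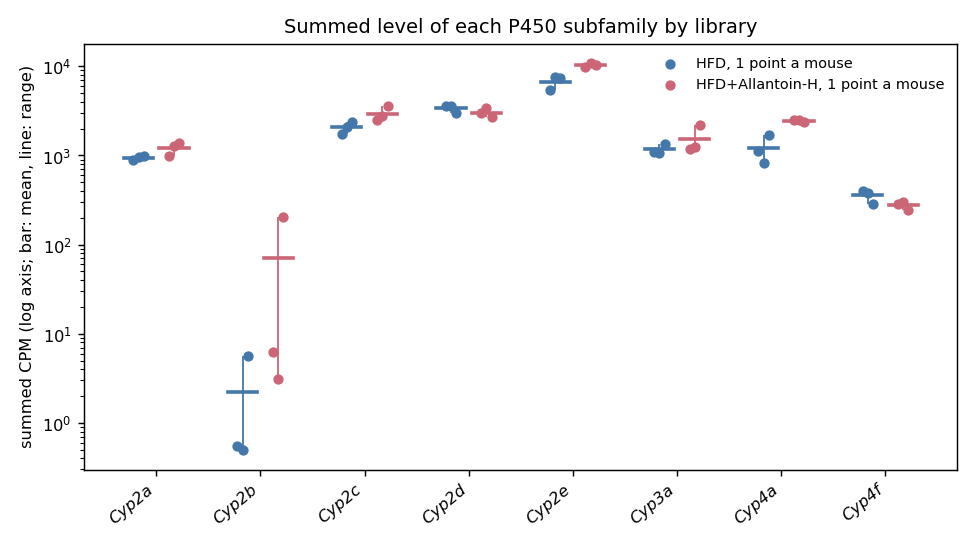
Summed CPM of each P450 subfamily in each mouse (log axis), with HFD in blue and HFD+Allantoin-H in red, bars at the group mean and lines from the lowest to the highest mouse. The groups do not overlap in Cyp2a, Cyp2c, Cyp2e and Cyp4a, and overlap in Cyp2b, Cyp2d, Cyp3a and Cyp4f, with the log2 ratios of Cyp2d and Cyp4f turning positive when libraries were scaled by size only.

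With the sets above included, 37 members, 23 of them tested, had at least 1 transcript with at least 95% identity over at least 200 bases to another gene, and 31 members fell into 12 such groups. The mainly female Cyp3a41a and Cyp3a41b differ at 2 of 1512 coding positions, so they could hardly be told apart by short reads, and both were at 0. The group of Cyp2c40, Cyp2c67, Cyp2c68 and Cyp2c69 summed to 221 to 480 CPM in HFD and 223 to 425 CPM in HFD+Allantoin-H libraries, with a log2 ratio of -0.05. Within it, Cyp2c67 had 126 to 293 CPM in HFD and 115 to 234 CPM in HFD+Allantoin-H livers. Among 30 pseudogenes and noncoding entries of the same subfamilies, 17 had no count, 4 were tested, all of them Cyp2d pseudogenes, and 1 was called lower. This was Cyp2d41-ps, with 8.19, 4.54 and 2.51 CPM in HFD and 0.880, 1.54 and 1.21 CPM in HFD+Allantoin-H livers (log2 fold change -2.04, edgeR adjusted p = 0.0184). The call of Cyp2d41-ps was lost without HFD+Allantoin-H replicate 4, 5 or 6 (adjusted p of 0.0591 to 0.0766).

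P450 enzymes need electrons and haem, and among 6 electron donors and membrane partners 2 were called higher and 0 lower (0 lower by DESeq2 and limma-voom, and 0 at an unadjusted p under 0.05). Por, the oxidoreductase that serves all microsomal P450 enzymes, had 122, 145 and 172 CPM in HFD and 339, 473 and 260 CPM in HFD+Allantoin-H livers, a log2 fold change of 1.29 (SE 0.24, edgeR adjusted p = 0.0080). Cyb5b, the cytochrome b5 of the outer mitochondrial membrane, rose by a log2 fold change of 1.30 (SE 0.17, adjusted p = 0.0033), while the microsomal Cyb5a was not called (-0.34, adjusted p = 0.174). Cyb5a, with 1354 to 1447 CPM in HFD and 1024 to 1262 CPM in HFD+Allantoin-H livers, and Cyb5r3, a reductase of cytochrome b5, with 391 to 414 and 308 to 368 CPM, lay lower without overlap, and neither was called (Cyb5r3 -0.28, adjusted p = 0.21). In both called genes the groups did not overlap either. Of 13 genes of haem synthesis and breakdown, 3 were called higher and 1 lower, where 11.3% of all tested genes were called higher and 13.0% lower. Alas1, the rate-limiting enzyme of haem synthesis in liver, had 198, 288 and 409 CPM in HFD and 628, 459 and 592 CPM in HFD+Allantoin-H livers (log2 fold change 0.91, adjusted p = 0.0371). The call of Alas1 was lost with the length and GC trend removed and when any library but HFD replicate 3 was left out, with log2 fold changes of 0.68 to 1.04 and adjusted p of 0.0657 to 0.120. Cpox (1.04, adjusted p = 0.0043) and Fech (0.77, adjusted p = 0.0082) were the other 2 called higher. Ppox, which acts between these last 2 enzymes, was the one called lower (-0.85, adjusted p = 0.0190), a call lost with scaling by library size only and when HFD+Allantoin-H replicate 4, 5 or 6 was left out, with adjusted p of 0.0709 to 0.0774 for Ppox in those 3 fits.

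Of 22 tested receptors and regulators of P450 genes, 7 were called higher and 2 lower, and the median of their log2 fold changes was 0.22. The shares over all tested genes were 11.3% higher and 13.0% lower. Ppara, the receptor upstream of the Cyp4a genes, had 39.1, 27.4 and 18.9 CPM in HFD and 109, 146 and 91.4 CPM in HFD+Allantoin-H livers, a log2 fold change of 2.02 (SE 0.29, edgeR adjusted p = 0.0039). Its partner Rxra rose by a log2 fold change of 0.92 (adjusted p = 0.0079). Nr1i2 (PXR), Nr1i3 (CAR) and Ahr were not called and had log2 fold changes of -0.00, -0.08 and 0.02 (adjusted p = 0.993, 0.881 and 0.949), each of which turned sign in some alternatives, scaling by library size only for Nr1i2 and Nr1i3 and removal of the length and GC trend for Ahr. The 2 called lower were Nr0b2 (SHP), a repressor of bile acid synthesis genes (-1.81, adjusted p = 0.0072), and Cebpb, a factor of the acute phase response (-1.30, adjusted p = 0.0034). Of 12 tested PAR bZIP and growth hormone pathway regulators, 3 were called higher, with Hlf and Dbp among them, and 2 lower, with Igf1 among them (-0.90, adjusted p = 0.0060, which was 0.101 for Igf1 with scaling by library size only). The calls of Hlf (adjusted p = 0.0690 and 0.0629) and Dbp (0.0627 and 0.0790) were lost without HFD+Allantoin-H replicate 4 or 5, and that of Hlf also with the length and GC trend removed (0.0732).

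**Figure D5:**
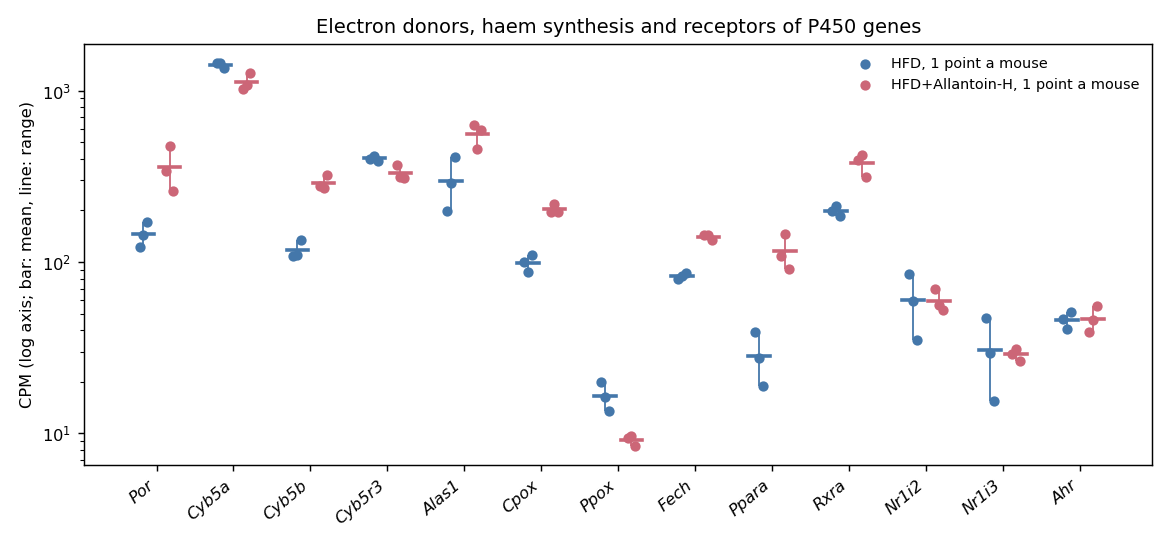
CPM on a log axis of electron donors (Por, Cyb5a, Cyb5b, Cyb5r3), haem synthesis enzymes (Alas1, Cpox, Ppox, Fech) and receptors (Ppara, Rxra, Nr1i2, Nr1i3, Ahr) in each mouse, with HFD in blue and HFD+Allantoin-H in red, bars at the group mean and lines from the lowest to the highest mouse. Por, Cyb5b, Alas1, Cpox, Fech, Ppara and Rxra lie higher in all HFD+Allantoin-H mice, Ppox, Cyb5a and Cyb5r3 lie lower, and the groups overlap for Nr1i2, Nr1i3 and Ahr.

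Other target genes of the same receptors were counted beside the members. Calls over all tested genes were 11.3% higher and 13.0% lower. Of 18 PPARα target genes other than P450, 7 were called higher, with Acadvl, Hadha and Aldh3a2 at the smallest p, and 2 lower. The median log2 fold change of these 18 genes was 0.41. Of the AhR target genes other than P450, 2 were tested and 0 called by edgeR, DESeq2 or limma-voom, with 0 at an unadjusted p under 0.05. Of 15 tested phase I enzymes other than P450, 6 were called higher and 0 lower by any of the 3 tools (0 at an unadjusted p under 0.05), Aldh3a2, Ces1d and Adh4 at the smallest p. The call of Ces1d was lost without HFD+Allantoin-H replicate 5 (adjusted p = 0.0558) and that of Adh4 without replicate 4, 5 or 6 (0.0623 to 0.0826). Of 14 P450 genes outside these families, 2 were called higher and 2 lower. Cyp7a1, the rate-limiting enzyme of bile acid synthesis, rose by a log2 fold change of 1.81 (adjusted p = 0.0066), and Cyp20a1 by 1.37 (0.0197). The 2 called lower were Cyp7b1 (-1.18, adjusted p = 0.0372) and Cyp21a1 (-5.28, 0.0210). Cyp21a1 had 4.69, 73.0 and 2.09 CPM in HFD and 0.440, 1.01 and 0.540 CPM in HFD+Allantoin-H livers. The size of its fold change thus rested largely on HFD replicate 2, and it was -5.82 to -2.31 over the alternative fits. HFD replicate 2 was also the library with the high adipocyte sum, and a link between these was not tested. The call of Cyp7b1 was lost with scaling by library size only and when any library but HFD replicate 3 was left out. Those of Cyp20a1 and Cyp21a1 were lost without HFD+Allantoin-H replicate 4, 5 or 6, and that of Cyp21a1 also with limma-voom.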

How the data were processed

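Liver RNA was sequenced from 6 mice, 3 on HFD and 3 on HFD+Allantoin-H, with 1 library each. The authors deposited raw read counts per gene, not normalized. The aligner, the counting tool and its strand setting are not given in the sources used here, and the submitters' processing notes name the builds GRCm38 and mm10. The 429 features without an Ensembl identifier (0.197% to 0.306% of a library) were left out, and no sample column was unused. Gene symbols, positions and transcripts came from GENCODE M21 (GRCm38), and promoters from RefSeq (GRCm38.p6).

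Counts were analysed with edgeR 4.0.16 in R 4.3.3 (TMM, filterByExpr, quasi-likelihood test, Benjamini-Hochberg adjustment over 12795 genes). The group was the only term, since no batch or date is given, and its effect and an unknown batch cannot be told apart. The p-values set the group difference against the spread between these mice, which edgeR estimates partly from the other genes. An exact permutation test of 3 against 3 cannot go below 0.1. Subfamily sums are sums of CPM with no test. The standard error was derived from the F statistic. Near-identical transcripts were searched with BLAST 2.17.0. As alternatives, libraries were scaled by RLE, by upper quartile or by their size only, and DESeq2 1.42.0 and limma-voom (limma 3.58.1) took the place of edgeR. Filters were dropped, set to 10 counts in each library or set to more than 1 CPM in 3 libraries. Further fits used no mitochondrial chromosome, removal of each library's length and GC trend, leaving out each library, and, added after seeing the data, keeping features without an Ensembl identifier. Only the reported edgeR fit was tested on simulated data, with far fewer changed genes than were called here, and the alternative fits were not.

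Genes named with full values were, per subfamily, the 3 called members with the smallest p and the most abundant one. In the remaining subfamilies they were the 5 called members with the smallest p, with Cyp1a2, Cyp2e1 and Cyp2f2. From each list they were up to 3 called genes, with Por, Ppara, Nr1i2, Nr1i3 and Ahr, and not all of them are printed. The lists of zonation genes are not reported here. Cyp2c39, Cyp2d10, Cyp2b13, Alas1, Rxra and other genes outside the rule were named after their values were seen. The members and lists were chosen with earlier results of these data known.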

Additional observations from a re-analysis of the deposited data

How the results depend on the processing

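Over the 17 alternative fits and 2 stricter thresholds, the count of P450 members called higher was 7 as reported, 15 with scaling by library size only, 15 with no filter, 2 at an adjusted p under 0.01 and 4 at an absolute log2 fold change of at least 1. The count called lower was 7 as reported, and 2, 2 and 3 with library size only, an adjusted p under 0.01 and the fold limit. Leaving out 1 library gave 3 to 10 higher and 2 to 8 lower. Regulators, growth hormone pathway, electron donor and haem genes together were 15 higher and 5 lower as reported, 2 lower with library size only and 8 lower with DESeq2, and 6 to 14 higher and 3 to 7 lower without 1 library. With scaling by library size only, which raises the median of all genes by 0.41, the log2 ratio of the sums moved to 0.77 for Cyp2a, 0.90 for Cyp2c, 0.79 for Cyp3a and 1.41 for Cyp4a, and turned to 0.25 for Cyp2d and 0.0613 for Cyp4f. For Cyp2b it was 1.08 to 7.10 when 1 library was left out. Signs turned with library size only for Cyp2a12 at 0.0135, Cyp2d9 at 0.36, Nr1i2 at 0.46 and Nr1i3 at 0.39. Without the length and GC trend Cyp2d9 was at 0.0662 and Ahr at -0.23. With limma-voom Nr1i2 was at 0.0802 and Nr1i3 at 0.0792, and Nr1i2 was at 0.0394 with no filter and 0.00755 with at least 10 counts in every library. Leaving out 1 library gave -0.22 to 0.11 for Cyp2d9, -0.0191 to 0.37 for Cyp2f2, -0.27 to 0.33 for Nr1i2, -0.40 to 0.37 for Nr1i3 and -0.11 to 0.14 for Ahr. The cause of these changes was not tested. No paired analysis was possible because the groups share no replicate numbers. At 3 mice per group and these depths, the 29 members that did not pass the filter on low counts were not tested in the reported fit.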
